A study of Mus musculus with 6 samples.

Results

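Heme oxygenase, the ferritin subunits and the proteins that carry, release and sense iron were followed in primary mouse keratinocytes with and without iASPP, the product of *Ppp1r13l*. The 9 genes were taken by name from the 55367 gene names of the count table: *Hmox1* for heme breakdown, *Fth1* and *Ftl1* for ferritin storage, *Tfrc* and *Slc11a2* for iron import, *Slc40a1* for export, *Ncoa4* for ferritin turnover, and *Ireb2* and *Aco1* for iron sensing. Each of the 9 passed the filter on low counts, so each was tested among 14916 genes.

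Keratinocytes, the main cells of the epidermis, came from the skin of 2-day-old pups of mixed C57BL/6 and 129/Sv background that carried *Ppp1r13l* flox/flox and a tamoxifen-dependent Cre (Cre+ERT). Each of 3 batches of cells was divided. The iASPP-KO culture received tamoxifen (1 mM by the labels, 1 μM by the paper) when the medium was changed at 24 h, and the iASPP-WT culture of the same batch received the medium alone. Both carried the floxed alleles and Cre, so loss of iASPP and exposure to tamoxifen cannot be told apart, and neither can fewer cells of a type and less RNA per cell. RNA depleted of ribosomal RNA was sequenced in 6 libraries, 3 per condition, with totals of 20202517 to 25157117 counts.

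Heme oxygenase 1, encoded by *Hmox1*, opens the heme ring and frees its iron, which is toxic unless it is bound. Ferritin, a shell of heavy (*Fth1*) and light (*Ftl1*) subunits, stores that iron, and *Ncoa4* delivers ferritin to lysosomes when iron is needed again. Transferrin receptor 1 (*Tfrc*) and DMT1 (*Slc11a2*) bring iron in, ferroportin (*Slc40a1*) lets it out, and the iron regulatory proteins IRP1 (*Aco1*) and IRP2 (*Ireb2*) bind a stem-loop, the iron-responsive element, in several of these mRNAs. In skin, as elsewhere, *Hmox1* is a gene that oxidants and heme induce, under the repressor BACH1 and the activator NRF2.

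The targeted gene was read first. *Ppp1r13l* stood at 14.3, 17.7 and 5.91 CPM in iASPP-KO batches 1, 2 and 3 and at 32.7, 45.1 and 21.0 CPM in the matching iASPP-WT cultures. Every iASPP-KO library lay below every iASPP-WT library, and the fitted log2 fold change was -1.45 ± 0.18 (SE, n = 3 per condition, adjusted p = 0.00296). CPM here is scaled by TMM library sizes. Adjusted p-values come from edgeR's quasi-likelihood test with a batch term and Benjamini-Hochberg adjustment over all tested genes, with a threshold of 0.05.

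The cell type was checked against markers. The fibroblast and macrophage lists, which held calls, are given at the end of these results. All 8 genes of the basal keratinocyte list were tested and none was called. Their summed level ran from 24323 to 29073 CPM, led by *Krt14*, and all 8 log2 fold changes were below 0, from -0.22 to -0.02 with a median of -0.11. Erythroid genes, which would carry heme and iron genes of their own, were near 0: none of the 9 with a row passed the filter, *Hba-a2* and *Hbb-bt* had no count in any library, and the list summed to at most 2.14 CPM. The melanocyte list summed to between 367 and 1126 CPM, led on average by *Pmel*, with none of its 7 genes called. The endothelial list reached at most 18.2 CPM in sum, with none of 4 tested genes called.

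*Hmox1* had the highest mean level per kilobase of the 9 genes and the smallest p-value of all 14916 tested genes. Its iASPP-KO level was 892, 1560 and 368 CPM in batches 1, 2 and 3, against 360, 555 and 129 CPM in iASPP-WT. Batch 2 was highest and batch 3 lowest in both conditions. The conditions overlap across batches, since the batch 3 iASPP-KO culture stood at the level of the batch 1 iASPP-WT culture. Within a batch, the iASPP-KO culture was always the higher, by 1.31, 1.49 and 1.51 on the log2 scale. The fit gave a log2 fold change of 1.44 ± 0.11 (SE, adjusted p = 0.00109), a 2.71-fold higher level.

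*Fth1*, the heavy subunit that carries the ferroxidase centre, was raised the most of the 9. Its level was 667, 1178 and 232 CPM in iASPP-KO and 175, 345 and 99.3 CPM in iASPP-WT. As for *Hmox1*, batch 2 was highest and batch 3 lowest in both conditions, and the conditions overlap across batches. The within-batch differences were 1.93, 1.77 and 1.22 on the log2 scale, all upward and smallest in batch 3. The fitted log2 fold change was 1.64 ± 0.15 (SE, adjusted p = 0.00109).

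*Ftl1*, the light subunit, rose less. Counts at its locus gave 97.5, 96.7 and 31.5 CPM in iASPP-KO and 50.8, 49.1 and 15.0 CPM in iASPP-WT. Batches 1 and 2 were nearly level and batch 3 was lower, in both conditions. The within-batch log2 differences, 0.94, 0.98 and 1.06, spanned a narrower range than those of *Fth1*. The fit gave 0.99 ± 0.12 (SE, adjusted p = 0.00282), which is 1.99-fold.

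Thus 3 of the 9 genes were called higher in iASPP-KO and 0 lower. Over all tested genes, 2.17% were called higher and 1.95% lower by the same rule. No p was adjusted over the 9 genes alone. None of the 9 separated the conditions without regard to batch. The share of all tested genes that did so is not given here, so this is a description. When the batch term was left out, these 3 calls were lost: the log2 fold changes stayed at 1.43, 1.75 and 0.97 for *Hmox1*, *Fth1* and *Ftl1*, but each had an adjusted p of 0.973, the highest among its alternatives. Levels in the iASPP-WT cultures alone differed between batches by 4.30-fold for *Hmox1*, 3.47-fold for *Fth1* and 3.39-fold for *Ftl1*, a wider span than 88.9%, 85.0% and 84.5% of tested genes had.

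**Figure D1:**
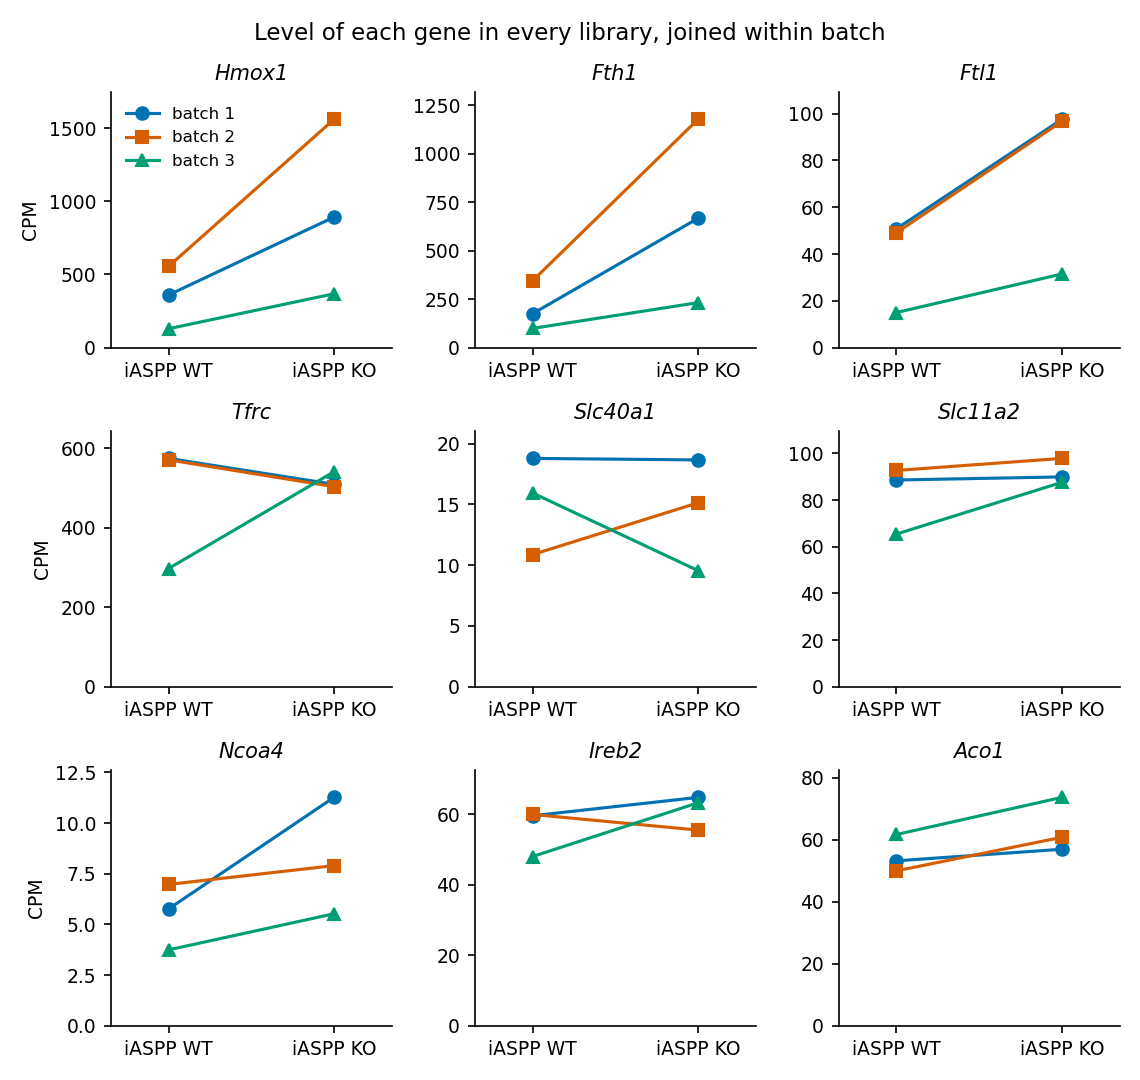
CPM of each of the 9 genes (vertical axis, from 0) in iASPP-WT and iASPP-KO (horizontal axis), with the 2 cultures of a batch joined by a line. *Hmox1*, *Fth1* and *Ftl1* climb in every batch from different starting levels, while *Tfrc* climbs only in batch 3, from 297 to 540 CPM.

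The *Ftl1* values rest on a small part of its transcript. Reads of 42 bases were counted only where they aligned to a single place, and 757 of the 927 windows of that length in its longest transcript also occur in transcripts of 16 other genes. The closest of these, *Ftl1-ps1*, shares 707 windows and held 32, 0, 21, 4, 1 and 9 counts in KO1, KO2, KO3, WT1, WT2 and WT3, the iASPP-KO and iASPP-WT libraries of batches 1 to 3. *Gm12164* held 52, 49, 5, 3, 17 and 14 counts in the same order, and *Ftl1-ps2* held at most 21 counts in a library. The 16 names together held 307 counts over the 6 libraries, beside 7705 at *Ftl1*. With their counts added, the *Ftl1* log2 fold change was 1.00 ± 0.12 (SE, adjusted p = 0.00260); reads that aligned to several places were not in the count table and remain uncounted in this sum too.

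The remaining names that begin with Ftl or Fth were close to empty. *Ftl2-ps* had 1 count and *Fth-ps2* had 2 over all libraries. *Fthl17a* had 28 counts in KO2, 8 in KO3 and 0 in the other 4 libraries, and the other *Fthl17* names and *Fth-ps3* had 0 counts, where a floor of 3 counts allows at most 0.148 CPM in the shallowest library.

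*Fth1* itself was little affected by copies, with 71 of 1453 windows of its longest protein-coding transcript shared. *Ncoa4* was affected more. Its longest annotated transcript, which keeps an intron, shares no window with another gene, but 1753 of 4024 windows (43.6%) of its longest protein-coding transcript occur in the processed copy *Ncoa4-ps* on chromosome 12. No window of *Hmox1*, *Tfrc*, *Slc40a1*, *Slc11a2*, *Ireb2* or *Aco1* was shared in either transcript. Of the 9 genes only *Ftl1* had exon bases covered by another gene on its strand, 109 of 1340, by *Gm22133*.

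The other 6 genes did not pass the threshold. *Tfrc*, the main route of transferrin-bound iron into cells, stood at 509, 503 and 540 CPM in iASPP-KO and 574, 570 and 297 CPM in iASPP-WT. In 5 libraries the level was 503 to 574 CPM, and the batch 3 iASPP-WT culture was alone in lying well below. The within-batch differences were therefore -0.17, -0.18 and 0.86, and the fitted log2 fold change was 0.17 ± 0.19 (SE, adjusted p = 0.744). Without batch 3 the value was -0.18, with the sign turned.

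*Slc11a2* lay between 65.4 and 97.9 CPM, with its lowest level in the same batch 3 iASPP-WT library (log2 fold change 0.17 ± 0.12, SE, and 0.05 without batch 3). *Slc40a1* was low throughout, 18.7, 15.1 and 9.56 CPM in iASPP-KO and 18.8, 10.9 and 15.9 CPM in iASPP-WT. The batches moved in different directions, by -0.01, 0.47 and -0.73, and the fitted value of -0.09 ± 0.25 (SE) became 0.23 without batch 3.

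*Ncoa4* had the largest fitted value among the 6, 0.57 ± 0.28 (SE, adjusted p = 0.355), on levels of 3.74 to 11.3 CPM. All 3 batches were upward, by 0.96, 0.18 and 0.55, and the fitted value ran from 0.37 to 0.77 with a batch left out. Adding the counts of *Ncoa4-ps*, an alternative chosen after the data were seen, gave 0.55 ± 0.28 (SE, adjusted p = 0.366). Of the iron sensors, *Ireb2* ran from 48.0 to 64.8 CPM and *Aco1* from 50.0 to 73.7 CPM, with fitted log2 fold changes of 0.14 ± 0.14 and 0.21 ± 0.12 (SE). The within-batch differences were 0.12, -0.11 and 0.40 for *Ireb2*, whose fitted value was 0.00487 without batch 3, and 0.10, 0.28 and 0.26 for *Aco1*. Their iASPP-WT levels differed between batches by 1.25-fold and 1.23-fold.

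**Figure D2:**
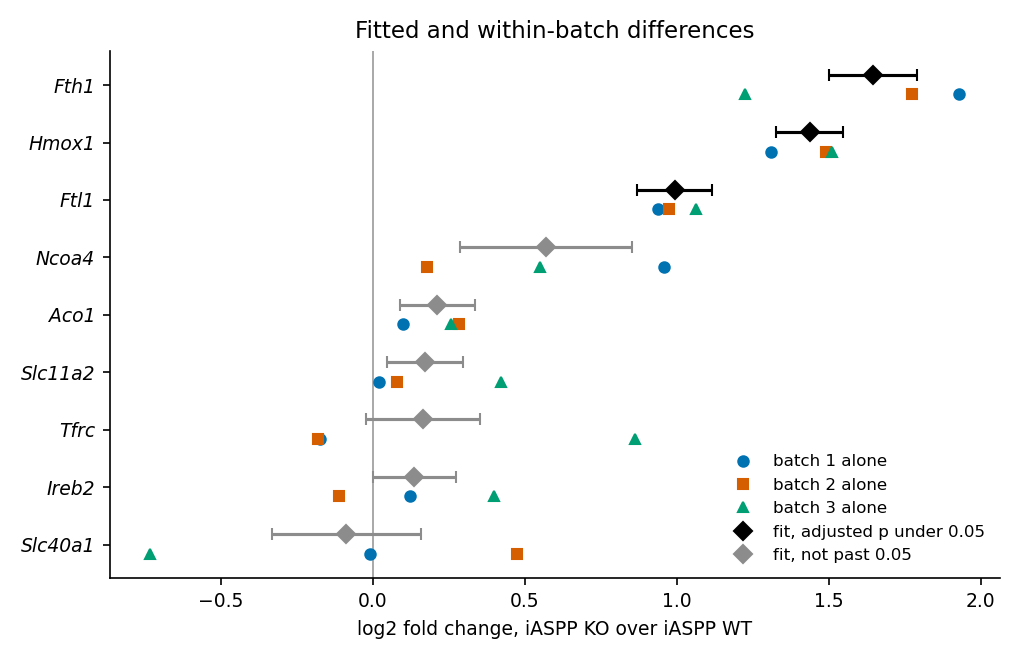
Log2 fold change of iASPP-KO over iASPP-WT (horizontal axis) for the 9 genes, as fitted over 3 batches (diamonds, bars are the SE) and within each batch (coloured points). The 3 genes past the threshold have all batch values above 0.9, and *Tfrc*, *Slc40a1* and *Ireb2* have batch values on both sides of 0.

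Per kilobase of annotated exon, the order of mean levels over the 6 libraries was *Hmox1* (368 CPM per kb), *Fth1* (130), *Tfrc* (80.7), *Ftl1* (42.4), *Slc11a2* (13.7), *Aco1* (13.2), *Ireb2* (6.17), *Slc40a1* (1.65) and *Ncoa4* (0.733). *Hmox1* was above *Fth1* in 6 of 6 libraries and lay higher than 99.2% of tested genes on this scale. *Fth1* and *Tfrc* did not keep their order, with *Fth1* above in 3 of 6 libraries and mean levels of 200 and 83.6 in iASPP-KO but 59.5 and 77.7 in iASPP-WT, nor did *Slc11a2* and *Aco1*, with *Slc11a2* above in 4 of 6. *Ncoa4* lay above 21.2% of tested genes. These levels count unshared reads over the whole exon length and so understate genes with near-identical copies. Per 1000 unshared windows of the protein-coding transcript, *Ftl1* came to 334 CPM beside 325 for *Fth1*, 422 for *Hmox1* and 3.02 for *Ncoa4*, so the place of *Ftl1* in the order depends on the scale.

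Ferritin counts, *Fth1* and *Ftl1* together, took 0.0699%, 0.121% and 0.0280% of the library in iASPP-KO and 0.0226%, 0.0382% and 0.0127% in iASPP-WT. Their 95% Wilson intervals cover counting error only and are narrow, 0.0122% to 0.0132% in the library with the lowest share and 0.119% to 0.122% in that with the highest. The share was higher in iASPP-KO in each batch, by 0.0483 ± 0.0335 percentage points on average (SD, n = 3 pairs, exact two-sided sign permutation p = 0.25). With 3 pairs 0.25 is the smallest p that test can give, so the share is a description. The mean difference ran from 0.0313 to 0.0648 with a batch left out, and was 0.0599 as a share of counts on protein-coding genes.

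Counts per length of *Fth1* over *Ftl1* were 2.64, 4.71 and 2.85 in iASPP-KO and 1.33, 2.71 and 2.56 in iASPP-WT. The balance moved toward the heavy subunit by 0.99 and 0.80 on the log2 scale in batches 1 and 2 and by 0.16 in batch 3. The mean was 0.65 ± 0.44 (SD, n = 3 pairs, exact two-sided sign permutation p = 0.25, the smallest it can give), and 0.64 when the 16 names sharing windows were added to *Ftl1*. The absolute ratio carries the loss of shared *Ftl1* reads, which enters both conditions.

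The iron-responsive element was searched in annotated transcripts as a C, 5 bases, the loop CAGTGN, and 5 bases that pair with those before the loop (G-T pairs allowed). It was found in 4 of the 9 genes, and in 368 of 21877 protein-coding genes (1.68%). The 9 genes were chosen for iron handling, where this element is known, so their larger share is no test. The matches are shown because they divide the 9 genes otherwise than the expression test did. Loops are in capitals, with 5 further bases at each end; coordinates are GRCm38.
Fth1, 5′ UTR, chr19:9982733-9982759, plus strand: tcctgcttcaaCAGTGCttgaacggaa
Ftl1, 5′ UTR, chr7:45459780-45459806, minus strand: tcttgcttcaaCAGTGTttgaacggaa
Slc40a1, 5′ UTR, chr1:45925466-45925492, minus strand: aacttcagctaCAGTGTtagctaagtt
Tfrc, 3′ UTR, chr16:32631220-32631246, plus strand: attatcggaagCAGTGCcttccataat
Tfrc, 3′ UTR, chr16:32631599-32631625, plus strand: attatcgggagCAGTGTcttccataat
Tfrc, 3′ UTR, chr16:32631664-32631690, plus strand: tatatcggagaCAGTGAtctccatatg
Tfrc, 3′ UTR, chr16:32631711-32631737, plus strand: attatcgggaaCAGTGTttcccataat
The 5 pairs next to the loop are the same in the elements of *Fth1* and *Ftl1*, while the printed bases before them differ. Of the genes with a match, *Fth1* and *Ftl1* were called and *Slc40a1* and *Tfrc* were not. *Hmox1*, with the smallest p-value, has no match, and neither do *Slc11a2*, *Ncoa4*, *Ireb2* and *Aco1*. The search allows no mismatch or bulge in the 5 pairs below the loop, so an irregular element, such as that known in *Slc11a2*, is missed by it. IRPs act on these mRNAs after transcription, on translation at the 5′ end and on stability at the 3′ end, and protein was not measured here.

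The 9 genes lie on 9 different chromosomes. By the count table's GRCm38 positions, *Hmox1* spans chr8:75093621-75100589 on the plus strand, *Fth1* chr19:9980598-9985098 on the plus strand and *Ftl1* chr7:45457944-45459884 on the minus strand. RefSeq promoter sequences (GRCm38.p6, 300 bases) were held for 6 of the 9 genes, in 10 entries, and *Hmox1*, *Slc40a1* and *Slc11a2* were not among them. The AP1 element TGANTCA occurs in 7.81% of 32851 promoters, the antioxidant response element core TGACNNNGC in 12.4% and the cAMP response element TGACGTCA in 1.79%, on either strand. In the entries of *Fth1*, *Ftl1*, *Tfrc*, *Ireb2* and *Aco1* none of these letters were found, and 1 of 3 *Ncoa4* entries held TGACNNNGC. This says nothing of elements outside these windows, and enhancers of *Hmox1* and ferritin lie further upstream.

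Genes whose 6 values ran closest to those of *Hmox1* were sought by the root mean square distance between log2 CPM values centred on each gene's mean. *Dusp4*, a phosphatase that acts on MAP kinases, was nearest at 0.05 log2 units, where the median over genes of at least 10 CPM was 1.14. Its level was 78.2, 144 and 30.4 CPM in iASPP-KO and 31.2, 49.6 and 11.6 CPM in iASPP-WT. The next were *Tfcp2l1* (0.17), the protease inhibitor *Slpi* (0.19), the sphingolipid enzyme *Degs2* (0.21) and the cornified envelope gene *Sprr2g* (0.21). *Fth1* itself lay at 0.23 and *Ftl1* at 0.38 from *Hmox1*.

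*Dusp4* was also nearest to *Fth1*, at 0.21, with *Hmox1* next at 0.23. Outside the 9 genes there followed *Gsto1*, a glutathione transferase, at 0.28, *Slpi* at 0.29, *Sprr2g* at 0.31 and *Tnfaip2* at 0.32. The likeness takes in the batch levels and the difference between conditions together, over 6 libraries, so genes chosen by it share the difference of *Hmox1* and *Fth1* by construction. Their log2 fold changes, from 1.27 for *Slpi* to 1.57 for *Sprr2g*, are given as a description.

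**Figure D3:**
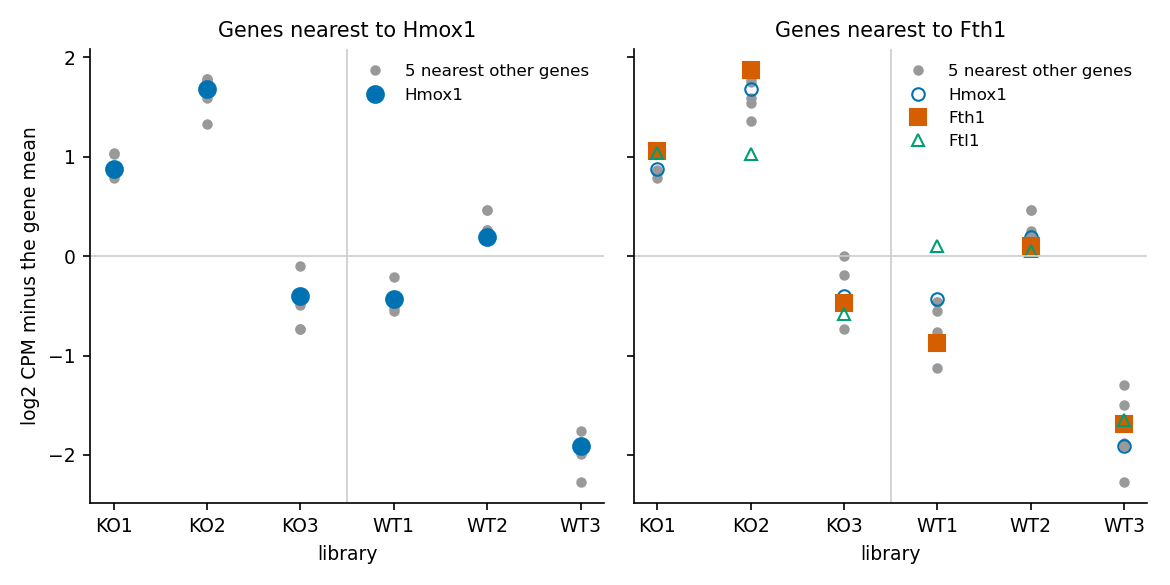
Log2 CPM minus the gene's mean (vertical axis) in the 6 libraries for *Hmox1* (left) and *Fth1* (right), with their 5 nearest other genes in grey and, at right, *Hmox1* and *Ftl1* as open symbols. KO2 is the highest and WT3 the lowest library for *Hmox1* and *Fth1*, and for *Hmox1* KO3 lies near WT1.

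Around the 9 genes, 10 pathway lists held 113 tested genes, of which 7 were called higher in iASPP-KO and 0 lower, where 2.17% of all tested genes were called higher and 1.95% lower. Whether the lists differ from other genes was not tested. Their median log2 fold change was 0.22, beside 0.01 for all tested genes. Of the 7 calls, those of *Slc7a11* and *Sqstm1* held whichever batch was left out. Those of *Slc48a1*, *Hephl1*, *Junb* and *Gabarap* were lost without batch 1 and without batch 2, and that of *Steap4* was lost whichever batch was left out. These fits rest on fewer libraries. For *Gabarap* the log2 fold change was 0.58 ± 0.16 without batch 1 and 0.57 ± 0.16 without batch 2, beside 0.57 ± 0.11 with all (SE).

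Heme synthesis gave no call. For its 8 tested enzymes the median was 0.17 and the range -0.17 to 0.24. *Cpox*, the most abundant, had a log2 fold change of 0.24 ± 0.17 (SE, adjusted p = 0.543). *Alas1*, which catalyses the first step and is repressed by heme, stood at 115, 121 and 54.6 CPM in iASPP-KO and 90.4, 107 and 48.4 CPM in iASPP-WT; it was picked out after its values were seen and was not called (adjusted p = 0.343).

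Of 13 tested genes of heme breakdown and transport (median 0.05), 1 was called. *Slc48a1*, which carries heme out of lysosomes, was at 171, 245 and 61.4 CPM in iASPP-KO and 104, 124 and 46.4 CPM in iASPP-WT, higher in 3 of 3 batches (log2 fold change 0.70 ± 0.13, SE, adjusted p = 0.0181). The constitutive heme oxygenase *Hmox2* and the biliverdin reductases *Blvra* and *Blvrb*, also picked out afterwards, had log2 fold changes of -0.40, -0.38 and 0.38 and were not called.

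In iron uptake and reduction 1 of 10 tested genes was called. The median was 0.34, with batch 1 going the other way (within-batch medians -0.22, 0.42 and 0.45). *Steap4*, a metalloreductase, rose by 1.06 ± 0.24 (SE, adjusted p = 0.0366, and 0.0748 to 0.152 with a batch left out), from 3.80, 3.28 and 10.4 CPM in iASPP-WT to 7.22, 6.15 and 26.2 CPM in iASPP-KO. Its batch 3 levels were the highest, opposite to the order of *Hmox1*. Of 6 tested genes of iron export and the hepcidin axis (median 0.50), *Hephl1*, a ferroxidase of the ceruloplasmin family, was called (0.80 ± 0.16, SE, adjusted p = 0.0258). It stood at 132, 98.1 and 26.4 CPM in iASPP-KO and 53.7, 64.6 and 18.8 CPM in iASPP-WT. Hepcidin itself, *Hamp*, had no counts.

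No call was made among 9 tested iron chaperones and sensing genes or among 25 genes of mitochondrial iron and iron-sulfur clusters. The medians were 0.07 and 0.12. *Herc2*, the most abundant of the first list, had a log2 fold change of -0.14 ± 0.11 and *Hspa9*, of the second, 0.05 ± 0.11 (SE). *Epas1*, which encodes HIF2α and was picked out afterwards, missed the threshold at 1.03 ± 0.28 (SE, adjusted p = 0.0761), with 13.1, 17.6 and 12.5 CPM in iASPP-KO and 5.15, 6.28 and 10.5 CPM in iASPP-WT.

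Autophagy genes that work with *Ncoa4* gave 2 calls among 16 tested, and a median of 0.22. *Sqstm1*, the cargo receptor p62, was at 1047, 1512 and 808 CPM in iASPP-KO and 646, 802 and 430 CPM in iASPP-WT, with every iASPP-KO library above every iASPP-WT library (log2 fold change 0.84 ± 0.11, SE, adjusted p = 0.00325). *Gabarap*, which is joined to the autophagosome membrane, rose by 0.57 ± 0.11 (SE, adjusted p = 0.0172), with within-batch differences of 0.57, 0.58 and 0.56.

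**Figure D4:**
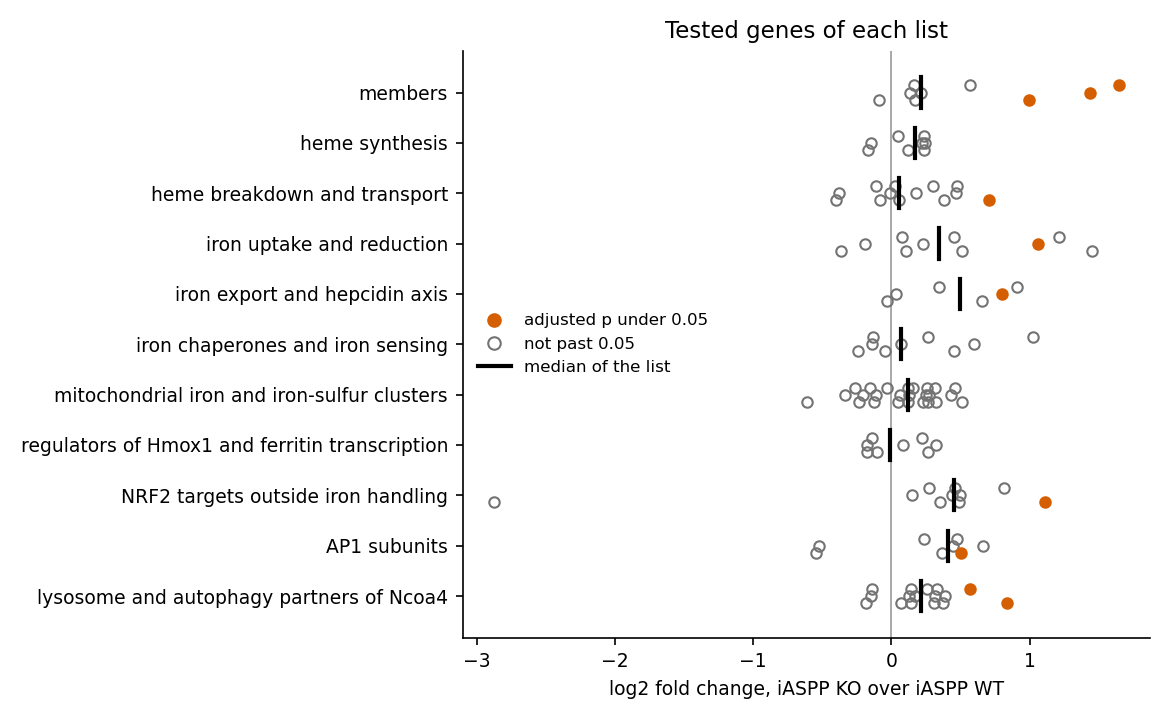
Log2 fold change of iASPP-KO over iASPP-WT (horizontal axis) for each tested gene of the 9 genes themselves (members) and of the 10 pathway lists, with filled points for genes past the threshold and a bar at the list's median. Filled points lie at 0.50 or above in every list that has one.

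The transcripts of known regulators of *Hmox1* and ferritin were not called. The repressors *Bach1* and *Bach2* had log2 fold changes of -0.18 ± 0.12 and -0.18 ± 0.70 (SE). For NRF2 (*Nfe2l2*) the value was 0.22 ± 0.13, for the related factor NRF1 (*Nfe2l1*) 0.33 ± 0.15 and for *Keap1*, which targets NRF2 for degradation, -0.14 ± 0.13 (SE). The partner proteins *Maff*, *Mafg* and *Mafk* had -0.11, 0.26 and 0.09. These values depended on the batches used. With a batch left out, *Bach1* ran from -0.28 to -0.11, *Keap1* from -0.19 to -0.09 and *Maff* from -0.15 to -0.04. The upward values ran from 0.09 to 0.52 for *Nfe2l1*, 0.11 to 0.35 for *Nfe2l2* and 0.11 to 0.38 for *Mafg*. The sign turned for *Mafk* (-0.070 to 0.17) and for *Bach2* (-0.57 to 0.35), which was at 0.891 to 2.53 CPM. The lowest adjusted p of the 8 was 0.327. BACH1, NRF2 and KEAP1 are largely controlled at the level of protein, which was not measured here.

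Beyond iron, the list of NRF2 targets had 1 call among 10 tested genes and a median of 0.45. *Slc7a11*, the cystine transporter, was at 830, 1066 and 225 CPM in iASPP-KO and 359, 599 and 91.9 CPM in iASPP-WT (log2 fold change 1.11 ± 0.12, SE, adjusted p = 0.00164). The list's median within-batch differences were 0.71, 0.69 and -0.09. *Nqo1*, picked out after its values were seen, stood at 704, 756 and 49.0 CPM in iASPP-KO and 269, 466 and 78.7 CPM in iASPP-WT, so that its within-batch difference was 1.39, 0.70 and -0.68. *Gclm*, also picked out afterwards, was not called (0.82 ± 0.20, SE, adjusted p = 0.0547), with 0.18 in batch 3. In batch 3 *Hmox1* differed by 1.51, and *Slc7a11* was also higher in iASPP-KO, at 225 against 91.9 CPM. Whether the effect on NRF2 targets differs between batches was not tested, since each batch has 1 culture per condition.

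**Figure D5:**
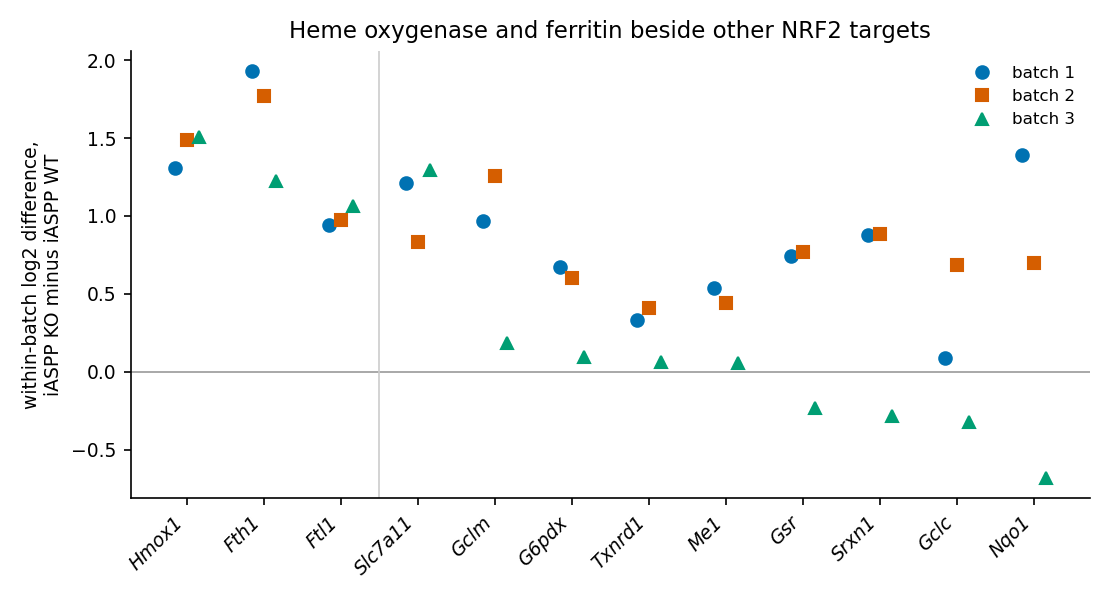
Within-batch log2 difference, iASPP-KO minus iASPP-WT (vertical axis), for *Hmox1*, *Fth1* and *Ftl1* and for the NRF2 targets with a mean of at least 10 CPM, which leaves out *Osgin1*. In batch 3 *Slc7a11* is at 1.29 and the other 8 targets lie between -0.68 and 0.18.

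AP1 subunits, of which JUN and FOS proteins are known to act at *Hmox1* enhancers, gave 1 call among 8 tested genes and a median of 0.41. *Junb* was at 516, 585 and 363 CPM in iASPP-KO and 339, 429 and 265 CPM in iASPP-WT (log2 fold change 0.50 ± 0.11, SE, adjusted p = 0.0296). *Jun*, picked out after its values were seen, lay the other way without being called (-0.55 ± 0.17, SE, adjusted p = 0.120). Every iASPP-KO library was below every iASPP-WT library for *Jun*, with 90.2, 96.8 and 78.4 CPM against 119, 107 and 169 CPM.

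Markers of other cells moved with batch or condition in part. The fibroblast list summed to 40.0, 54.2 and 475 CPM in iASPP-KO and 38.7, 48.7 and 691 CPM in iASPP-WT, so batch 3 stood apart. Levels of *Hmox1*, *Fth1* and *Ftl1* were lowest in batch 3 in both conditions, and whether this is linked to the fibroblast list was not tested. *Col1a2* was the list's most abundant gene on average, though below *Pdgfra* in KO1 and KO2. It was called lower in iASPP-KO (-0.55 ± 0.13, SE, adjusted p = 0.0428), as was *Col3a1* (-0.87 ± 0.18, SE, adjusted p = 0.0269), out of 8 tested. The call of *Col1a2* was lost whichever batch was left out, and that of *Col3a1* without batch 2 and without batch 3. The list lay mostly below 0, in 6 of 8 genes, with a median of -0.44 and within-batch medians of -0.13, -0.37 and -0.45. *Pdgfra*, picked out after its values were seen, lay the other way without being called (0.81 ± 0.34, SE), by 1.29, 1.60 and -0.42 within batches.

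The macrophage list, relevant because macrophages express *Hmox1* and ferritin strongly, summed to 67.4, 73.5 and 88.6 CPM in iASPP-KO and 45.4, 60.5 and 70.2 CPM in iASPP-WT. *Csf1r* was its 1 call among 6 tested (1.11 ± 0.21, SE, adjusted p = 0.0206), and the call was lost without batch 1 and without batch 2. It stood at 18.5, 28.8 and 5.23 CPM in iASPP-KO and 9.09, 15.1 and 1.92 CPM in iASPP-WT, the batch order of *Hmox1*. All 6 lay above 0, with a median of 0.39 and within-batch medians of 0.58, 0.92 and 0.27. *Cd68*, the most abundant on average, had a log2 fold change of 0.19, and *Lyz2*, picked out after its values were seen, 0.60 ± 0.21 (SE, adjusted p = 0.179). *Lyz2* stood at 4.81, 2.24 and 59.1 CPM in iASPP-KO and 2.86, 1.11 and 49.6 CPM in iASPP-WT. *C1qc* had no counts, and *C1qa*, *C1qb*, *Cd163*, *Mrc1* and *Fcgr1* did not pass the filter. The part of these cells in the *Hmox1* and ferritin differences was not tested. Without batch 3, where the fibroblast sum was highest, the log2 fold changes were 1.40 for *Hmox1*, 1.85 for *Fth1* and 0.96 for *Ftl1*. That of *Csf1r* was then 0.98, so leaving out batch 3 cannot show the part of macrophages.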

How the data were processed

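The deposited raw counts come from the authors, who (submitters' processing notes and file header) ran FastQC 0.11.9, trimmed reads with cutadapt 2.10, aligned them with STAR 2.7.3 to GRCm38 (mm10) and counted them over GENCODE vM25 exons by gene name and strand with featureCounts 2.0.0, leaving out reads that align to several places. The authors' table of log2 fold changes and p-values was not used. Conditions were read from the titles and batches from the batch labels. The age of the pups comes from the paper.

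The two-sided test was edgeR 4.0.16's quasi-likelihood F-test under R 4.3.3. Genes passed filterByExpr by condition, libraries were scaled by TMM, the model held batch and condition, and p-values were adjusted by Benjamini-Hochberg over 14916 genes (0.05). Common dispersion came to 0.0627 on 2 residual degrees of freedom. SE was taken as log2 fold change over root F. Within-batch differences use log2 CPM, prior count 2. Deviations from the condition mean correlated between the 2 libraries of a batch (r of 0.302, 0.368 and 0.568); the batch term itself was set by the design of divided cultures. Ratio and share were compared by exact permutation of signs within batches. Intervals and floors (3 counts) cover counting error only. Shared windows and iron-responsive elements were read from GENCODE vM21 transcripts, and promoters from RefSeq. The code was tested on simulated counts. Tables and figures used Python 3.11.15, pandas 2.3.3, numpy 2.4.6, scipy 1.17.1 and matplotlib 3.10.9.

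The 9 genes and the lists were chosen with earlier results of these data known. Named by rule were the 9 genes, in each list the genes past the threshold or else the most abundant, all regulators, the 5 genes of at least 10 CPM most like *Hmox1* and *Fth1*, and names sharing windows with *Ftl1* or beginning as it does. Exceptions are named in the text. Of the listed names, *Hfe2* was found as *Hjv* and *Ahsp* had no entry. The alternatives were no batch term, DESeq2 1.42.0, DESeq2's size factors, upper-quartile scaling, no filter beyond 1 count, at least 10 counts in every library, each batch left out, robust dispersion, ferritin left out of totals and scaling, a threshold of 0.01, *Ftl1* summed with its copies, and a protein-coding denominator for the ferritin share. *Ncoa4* summed with its copy was added after the data were seen.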

Additional observations from a re-analysis of the deposited data

How the results depend on the processing

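The calls of *Hmox1*, *Fth1* and *Ftl1* depend on comparing cultures within their batch. In the fit without the batch block, edgeR called 0 genes higher and 0 lower (360 and 331 at an unadjusted p under 0.05), 0 of the 9 genes among them, with log2 fold changes of 1.43, 1.75 and 0.97 for these 3. Each kept its call in its other alternatives, 11 of 12 for *Hmox1*, 11 of 12 for *Fth1* and 12 of 13 for *Ftl1*, with values of 1.40 to 1.50, 1.50 to 1.85 and 0.96 to 1.03. The other 6 genes had no call in any alternative. With a batch left out, *Tfrc* ran from -0.18 to 0.35, *Slc40a1* from -0.37 to 0.23, *Bach2* from -0.57 to 0.35 and *Mafk* from -0.070 to 0.17.

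Over all genes, no filter beyond 1 count gave 624 higher and 491 lower, in place of 323 and 291, and the threshold of 0.01 gave 88 and 78, which follows from the threshold. Leaving a batch out gave 169 to 793 higher and 117 to 662 lower, most without batch 3; the cause was not tested. *Slc48a1*, *Hephl1*, *Junb*, *Gabarap* and *Csf1r* lost their calls without batch 1 or without batch 2, *Steap4* and *Col1a2* whichever batch was left out, and *Col3a1* without batch 2 or 3; these 8 also missed the threshold of 0.01. *Tfcp2l1* lost its call without batch 2. *Slc7a11* and *Sqstm1* lost theirs only without the block. Fits with a batch left out rest on fewer libraries, so a lost call alone does not show that a gene depended on that batch. *Ncoa4* rests on counts of 84 to 253 per library, and what limits its precision was not tested. Reads shared with copies limit *Ftl1* and *Ncoa4* at any depth.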
